A study of Homo sapiens with 6 samples.

Results

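Transcript levels of 10 SOX transcription factor genes were examined in A375 cells, an established human melanoma line, with and without overexpression of HMGB2. The genes were SOX2, SOX4, SOX5, SOX6, SOX8, SOX11, SOX12, SOX13, SOX15 and SOX18. They were chosen by name from the SOX family, SOX9 and SOX10 not being included, and all 10 were among the 58302 gene IDs counted. The cells carried either an empty lentiviral vector (3 libraries) or a vector for stable overexpression of HMGB2 (3 libraries), and nothing else differed between the groups by their labels. Poly(A) RNA was sequenced in bulk. The study asked which genes respond when HMGB2, a DNA-bending protein of chromatin, is raised. Each group was a stable line, and the study's reporting form describes the replicates as technical, so the spread given here is that between preparations of a line and not between separate transductions.

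SOX proteins bind the minor groove of DNA through an HMG box, a domain related to the boxes of HMGB2, and bend the DNA sharply. Unlike HMGB proteins they recognise a short sequence. They are sorted into subgroups by the similarity of that box: SOXB1 (SOX2) maintains stem and neural progenitor cells, SOXC (SOX4, SOX11, SOX12) acts in neuronal and mesenchymal differentiation, and SOXD (SOX5, SOX6, SOX13) lacks an activation domain of its own and tunes other SOX factors. SOXE (SOX8, SOX9, SOX10) specifies neural crest, glia and melanocytes, SOXF (SOX18) acts in blood and lymph vessels, and SOXG holds SOX15 alone.

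Reads assigned to genes numbered between 45925053 and 56755212 per library. HMGB2 itself rose from 7514 ± 243 to 15517 ± 1177 normalized counts (mean ± SD, n = 3), a log2 fold change of 1.05 (log2 change below) with a standard error (SE) of 0.10 (DESeq2 adjusted p = 4.4e-22). Normalized counts are read counts divided by the size factor of the library. Empty vector replicate 3 stood apart from the other empty vector libraries. KRT5, a basal keratin, was at 5.05 and 11.5 normalized counts in the first and second replicates of that group, against 279 in the third and 199.9 to 289.2 under overexpression. CCND1, the cyclin D1 gene, was at 28098 and 29028 against 16587 in the same order, and at 12851 to 17420 under overexpression. The melanocytic marker S100B was high at 3443 ± 93.5 in the empty vector group. MITF stood at 1442 ± 54.5, whereas the pigment genes MLANA and TYR averaged 5.60 and 0 there. Of 11 melanocytic markers, 7 reached a mean of 10 normalized counts. The sum of all 11 lay between 12372 and 12875 in empty vector and between 12831 and 13200 in overexpression libraries. SOX10, one of the 11, was listed at 0 in the column used and adds nothing to this sum. It had 28863 to 56464 reads per library in the sum of the strand-specific columns, as given below. The 5 endothelial markers summed to 100.1 to 129.9 and 107.4 to 126.3, and the 4 immune markers to at most 13.3 with PTPRC at 0. The 7 fibroblast markers, all detected, summed to 3915 to 5920 and 5466 to 7116, and the 4 keratinocyte markers to 4583 to 4956 and 4486 to 5076. No marker in these lists passed the test between the groups (DESeq2, adjusted p under 0.05).

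SOX2 and SOX5 rose and SOX8 fell under HMGB2 overexpression, and the other 7 genes did not pass the test. All 10 genes received an adjusted p, and 3 passed it, 2 higher and 1 lower. Among all 18836 genes tested, 4.94% passed, 2.29% higher and 2.64% lower. The median log2 change of the 10 genes was -0.03, beside 0.00 for all genes tested. In 4 of the 10 genes (SOX2, SOX5, SOX8 and SOX18) the libraries of the groups did not overlap, which was so for 21.9% of all genes tested. With edgeR's quasi-likelihood test only SOX2 passed, where 2.81% of 16754 genes passed. When empty vector replicate 3 was left out, 5 of the 10 genes passed, SOX13 and SOX18 being added as lower, where 17.8% of all genes passed.

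**Figure D1:**
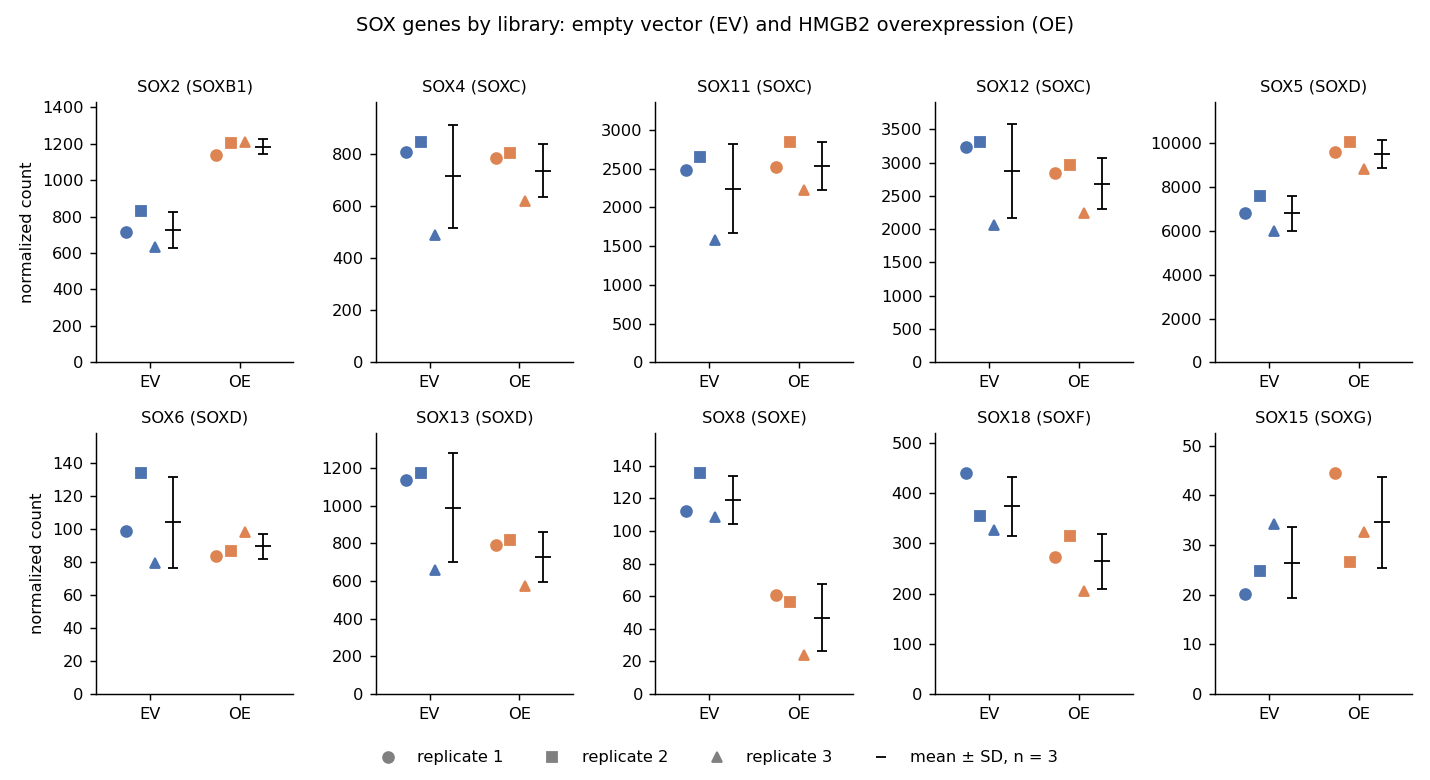
Normalized read counts of the 10 SOX genes in each library (vertical axes start at 0), with empty vector (EV) in blue and HMGB2 overexpression (OE) in orange; symbols give the replicate number and the bars the mean ± SD of 3 libraries. SOX2 and SOX5 lie higher and SOX8 and SOX18 lower in every overexpression library than in any empty vector library, and empty vector replicate 3 is the lowest of its group for 9 of the 10 genes.

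SOX2, the pluripotency and neural progenitor factor, rose 1.63-fold. Its normalized counts were 715.2, 831.8 and 632.1 with the empty vector (replicates 1, 2 and 3, the order used throughout) and 1137, 1202 and 1211 with overexpression. The groups did not overlap, and the overexpression libraries were closer together than the empty vector libraries. The mean went from 726.4 ± 100.3 to 1183 ± 40.1, a log2 change of 0.70 (SE 0.14, 95% interval 0.44 to 0.97, DESeq2 adjusted p = 2.16e-05). SOX2 passed the test under each alternative fit, with adjusted p between 2.24e-09 and 0.0185, the highest being that of edgeR. The gene is a single exon on chromosome 3 (chr3:181711925-181714436, plus strand, hg38) that lies in an intron of SOX2-OT, a non-coding gene on the same strand. SOX2-OT had means of 20.6 and 20.2 normalized counts in the empty vector and overexpression groups, a log2 change of -0.03 (SE 0.48, DESeq2 adjusted p = 0.993). Of the 50-base words in the SOX2 transcript, 2.03% also occur in other genes, among them its relatives SOX1 and SOX21. The 250 bases before the annotated start of SOX2 (chr3:181711675-181711924, plus strand, RefSeq on GRCh38.p14) are shown because the gene rose, with the SOX core word in capitals.
SOX2: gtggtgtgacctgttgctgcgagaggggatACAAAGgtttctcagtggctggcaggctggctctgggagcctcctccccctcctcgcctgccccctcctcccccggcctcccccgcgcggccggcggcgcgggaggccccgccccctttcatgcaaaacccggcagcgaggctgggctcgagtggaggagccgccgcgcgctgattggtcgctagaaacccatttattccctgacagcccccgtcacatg

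The SOXC genes, which share roles in neuronal and mesenchymal differentiation, passed no test in either direction. SOX11, known for driving neuronal maturation, had 2483, 2648 and 1584 normalized counts with the empty vector and 2518, 2848 and 2225 with overexpression. SOX12, the least studied member of the subgroup, had 3238, 3315 and 2068, and then 2849, 2965 and 2242. SOX4, which is linked to epithelial-mesenchymal transition in tumours, had 805.1, 846 and 486.2, and then 783, 803.7 and 617.9. In all of them replicate 3 was the lowest library of its group and the groups overlapped. The log2 changes were 0.18 for SOX11 (95% interval -0.20 to 0.55), -0.10 for SOX12 (-0.47 to 0.28) and 0.04 for SOX4 (-0.37 to 0.46), with DESeq2 adjusted p of 0.791, 0.903 and 0.969. Intervals of this width do not show that the SOXC genes kept their levels. SOX11 lies on chromosome 2 (chr2:5692384-5701385), SOX12 on chromosome 20 (chr20:325552-330224) and SOX4 on chromosome 6 (chr6:21593751-21598619), all on the plus strand of hg38. The sign of all 3 values turned in at least 1 of the fits that left out a library.

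Within the SOXD subgroup SOX5 rose, while SOX6 and SOX13 did not pass the test. SOX5, a cofactor of SOX9 in cartilage and a modulator of SOX10 in the melanocyte lineage, had 6809, 7573 and 5992 normalized counts with the empty vector and 9608, 10063 and 8801 with overexpression. The lowest overexpression library was above the highest empty vector library. The mean went from 6791 ± 790.8 to 9491 ± 639.2, a 1.40-fold rise with a log2 change of 0.48 (SE 0.12, 95% interval 0.24 to 0.72, DESeq2 adjusted p = 0.00344). The call was lost with edgeR (adjusted p = 0.0508), and in DESeq2 without empty vector replicate 1 (adjusted p = 0.0714), without overexpression replicate 1 (adjusted p = 0.099) and without overexpression replicate 2 (adjusted p = 0.116). When libraries were left out in turn the estimate stayed between 0.40 and 0.57. SOX5 is a long gene on chromosome 12 (chr12:23529504-24562544, minus strand, hg38) with 23 annotated transcripts. The 197 bases of its window before that start (chr12:24562545-24562741, minus strand, RefSeq on GRCh38.p14) are shown for comparison with SOX2, the other gene that rose, with the SOX core words in capitals.
SOX5: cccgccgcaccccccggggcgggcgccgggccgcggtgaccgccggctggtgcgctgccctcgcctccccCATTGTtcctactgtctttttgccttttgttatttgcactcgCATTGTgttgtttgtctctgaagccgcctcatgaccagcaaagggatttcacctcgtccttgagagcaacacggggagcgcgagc

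SOX13, a SOXD factor first known as an autoantigen, had 1138, 1174 and 657.9 normalized counts with the empty vector and 792.1, 817.5 and 575.1 with overexpression. The groups overlapped through empty vector replicate 3, which lay below overexpression replicates 1 and 2. The log2 change was -0.44 (SE 0.23, 95% interval -0.89 to 0.00, DESeq2 unadjusted p = 0.0495, adjusted p = 0.349). Without empty vector replicate 3 it was -0.66 (DESeq2 adjusted p = 0.000162), in the fit where 17.8% of all genes passed. SOX13 also passed with that library kept and a term for the third replicates of both groups, at -0.42 (DESeq2 adjusted p = 0.000709), where 17.3% of all genes passed. SOX13 is on chromosome 1 (chr1:204073115-204127743, plus strand, hg38). SOX6, which acts in erythroid cells and cartilage, had 99, 133.8 and 79.4, and then 83.6, 86.7 and 97.9 normalized counts. Its groups overlapped, and the log2 change was -0.23 (SE 0.26, 95% interval -0.74 to 0.28, DESeq2 adjusted p = 0.807). SOX6 is on chromosome 11 (chr11:15966449-16739591, minus strand, hg38).

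SOX8, the SOXE factor active in glia and gonads, fell to 39.5% of its empty vector level. It had 112.1, 135.5 and 108.4 normalized counts with the empty vector and 60.9, 56.1 and 23.6 with overexpression. The groups did not overlap, and overexpression replicate 3 was the lowest library of all. The mean went from 118.7 ± 14.7 to 46.9 ± 20.3, a log2 change of -1.33 (SE 0.33, 95% interval -1.98 to -0.69, DESeq2 adjusted p = 0.00248). The call rests on few reads, 111, 153 and 101 against 67, 57 and 21. The shrunken estimate was -0.76. The call was lost with edgeR (adjusted p = 0.0572) and, in DESeq2, without empty vector replicate 2 (adjusted p = 0.0756), and the log2 change lay between -1.56 and -1.02 when libraries were left out in turn. In bulk RNA, fewer cells with SOX8 transcripts and less SOX8 RNA per cell cannot be told apart. SOX8 lies on chromosome 16 (chr16:981770-986979, plus strand, hg38), and 99.2% of its strand-specific read assignments were kept in the counts used.

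SOX18, the SOXF factor that specifies lymphatic endothelium, was lower in every overexpression library but did not pass the test over all genes. It had 440.4, 355.2 and 327.3 normalized counts with the empty vector and 273.4, 314.2 and 204.8 with overexpression. The groups came close, empty vector replicate 3 being 327.3 and overexpression replicate 2 being 314.2. The log2 change was -0.50 (SE 0.20, 95% interval -0.89 to -0.11, DESeq2 unadjusted p = 0.0125, adjusted p = 0.156), and it was -0.59 without empty vector replicate 3 (DESeq2 adjusted p = 0.0207). SOX18 is on chromosome 20 (chr20:64047582-64049639, minus strand, hg38). None of the endothelial markers passed the test, as given above. SOX15, the SOXG gene with roles in muscle repair and placenta, was near the lower end of detection at 20.2, 24.8 and 34.3, and then 44.5, 26.6 and 32.6 normalized counts. Its groups overlapped and its log2 change of 0.39 had a wide interval (-0.40 to 1.19, DESeq2 adjusted p = 0.773). SOX15 is on chromosome 17 (chr17:7588178-7590094, minus strand, hg38).

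**Figure D2:**
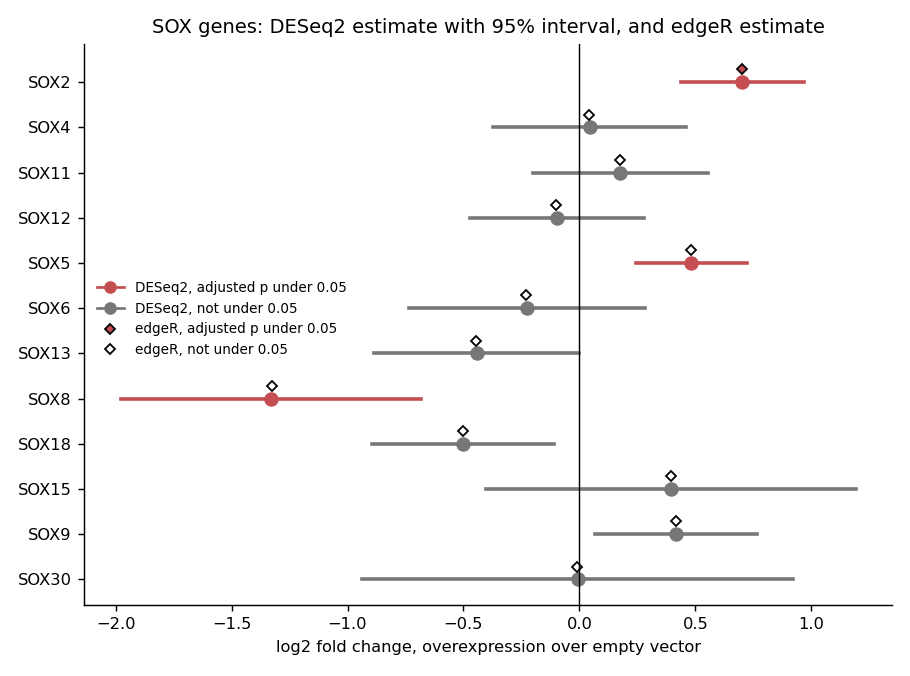
Log2 fold change, overexpression over empty vector, of the 10 SOX genes and of SOX9 and SOX30; circles and bars give the DESeq2 estimate with its 95% interval and diamonds the edgeR estimate, red or filled where adjusted p was under 0.05. SOX2 passed with both tools, SOX5 and SOX8 with DESeq2 only, and the estimates of the tools nearly coincide.

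Many of the SOX genes were also lower in the third replicates. Within the empty vector group, 9 of the 10 genes (all but SOX15) were lowest in replicate 3, as were 41.8% of the 16692 genes with a mean of 10 or more normalized counts. Within the overexpression group 7 of the 10 were lowest in replicate 3, as were 40% of those genes. The normalized counts of the 10 genes summed to 15860, 17036 and 11969 with the empty vector and to 18149, 19182 and 16031 with overexpression. The summed groups overlapped, empty vector replicate 2 lying above overexpression replicate 3. Overexpression replicate 3 also had 10.6% multimapped reads, left out of gene counts, beside 2.58% to 4.89% in the other libraries. The part of the third-replicate differences in the SOX values was examined only through the fits that leave out a library or add a term for the third replicates. The part of the multimapped reads was not tested.

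**Figure D3:**
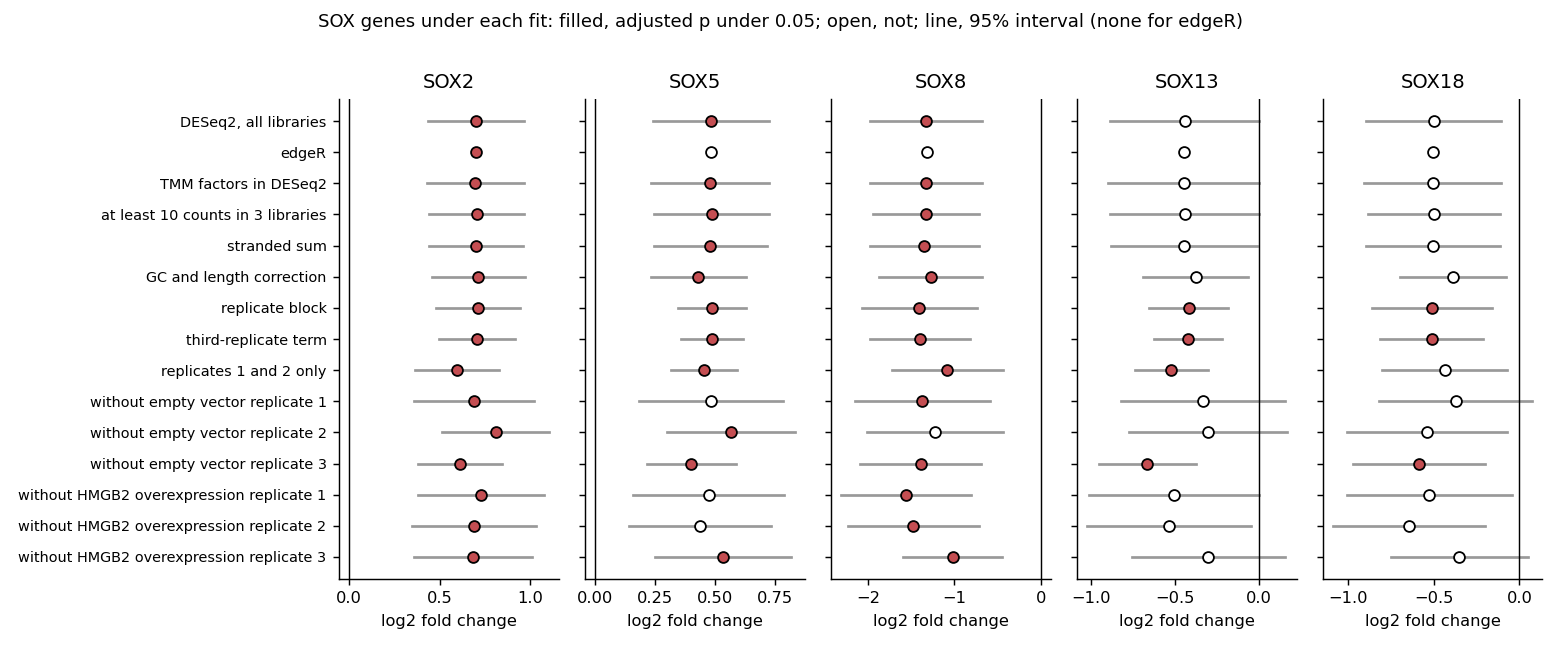
Log2 fold change of SOX2, SOX5, SOX8, SOX13 and SOX18 (horizontal axes) under the DESeq2 fit of all libraries and each alternative fit (rows), with 95% intervals except for edgeR; filled circles have adjusted p under 0.05. SOX2 is filled throughout, SOX5 is open in 4 alternatives and SOX8 in 2, and SOX13 is filled in 4 and SOX18 in 3.

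Levels of different genes were compared per length, as normalized counts per kilobase of annotated exon. SOX12 (614.9 ± 149.5) and SOX5 (601.6 ± 70.1) had the highest per-length levels in the empty vector group, followed by SOX2 (289.2 ± 39.9) and SOX11 (248.6 ± 63.6). SOX18 (201 ± 31.7), SOX4 (146.3 ± 40.5) and SOX13 (133.4 ± 38.8) formed the middle, and SOX8 (26.6 ± 3.29), SOX15 (18.1 ± 4.92) and SOX6 (5.18 ± 1.37) the low end. The order of SOX12 and SOX5 was not settled by the libraries: SOX12 was above SOX5 per length in 2 of the 3 empty vector libraries and in 0 of the 3 overexpression libraries. In the empty vector group the ranges of SOX2 and SOX11, of SOX11 and SOX18, and of SOX4 and SOX13 also overlapped. Under overexpression the per-length level of SOX5 was 840.7 ± 56.6 and stood above that of SOX12 (574.6 ± 83.1). SOX8 (10.5 ± 4.53) went below SOX15 (23.6 ± 6.22), which it had exceeded in all 3 empty vector libraries. This order depends on the column used: in the strand-specific sum the empty vector mean per kilobase was 32.6 for SOX15 and 26.9 for SOX8. The length used matters for SOX5, SOX13 and SOX6, whose annotated exons together are longer than any of their transcripts. Per kilobase of the longest transcript the empty vector levels of SOX5 and SOX13 were 959.7 and 242.9, the highest and the fifth of the 10 genes. That of SOX6 was 11.2, against 5.18 per kilobase of annotated exon, and was the lowest of the 10 by either length.

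**Figure D4:**
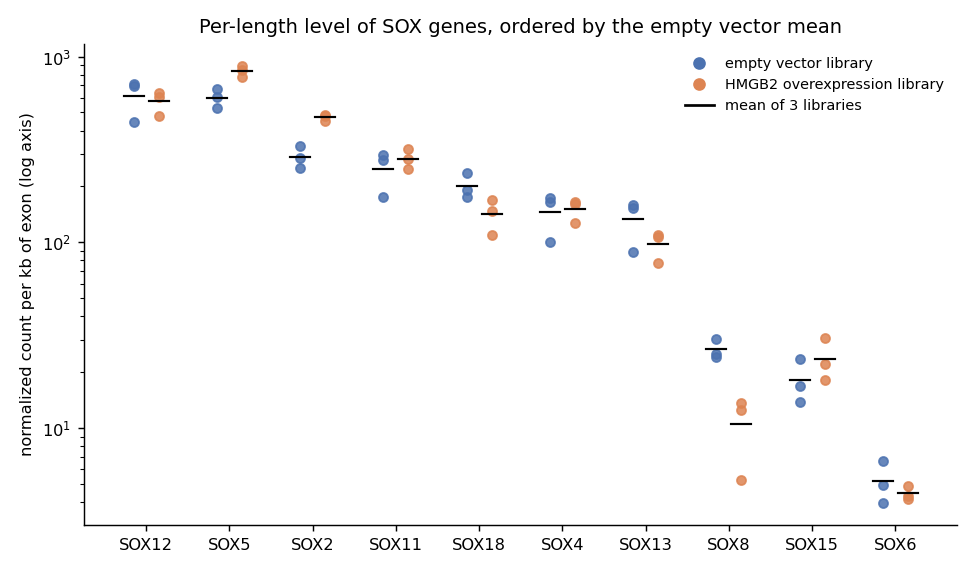
Normalized counts per kilobase of annotated exon (log axis) for the 10 SOX genes in each library, ordered by the empty vector mean; points are libraries and bars the mean of 3. The per-length levels run from 614.9 for SOX12 to 5.18 for SOX6 in empty vector cells, and SOX5 and SOX2 shift up while SOX8 shifts down under overexpression.

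The balance within subgroups was described by log2 ratios of read counts within a library, which do not depend on the scaling of libraries. These ratios were chosen after the values had been seen. The ratio of SOX5 to SOX13 was 2.58, 2.69 and 3.19 with the empty vector and 3.60, 3.62 and 3.94 with overexpression, a difference of 0.90 between group means. The ratio of SOX5 to SOX6 differed by 0.68 in the same direction. Among the SOXC genes, SOX11 to SOX12 differed by 0.28 and SOX4 to SOX12 by 0.15. In these 4 of 6 pairs the groups did not overlap. The exact two-sided permutation p was 0.1 for each (Benjamini-Hochberg adjusted over 6 pairs, 0.15). At 3 against 3 libraries, 0.1 is the smallest permutation p possible, so no pair could pass the threshold used for genes. The 4 pairs are not separate findings, because SOX5 is in each of the SOXD pairs and SOX12 in each of the SOXC pairs. Among single genes tested 21.9% did not overlap, and the share among all gene pairs was not counted. SOX4 to SOX11 (difference -0.13, exact permutation p = 0.2, adjusted 0.24) and SOX6 to SOX13 (difference 0.22, exact permutation p = 0.6) overlapped. SOX5 made up 42.9% to 50.1% of the summed normalized counts of the 10 genes in empty vector libraries and 52.5% to 54.9% in overexpression libraries. These shares are not scaled by gene length, so they do not compare the level of SOX5 with that of other genes. Per kilobase of annotated exon the empty vector mean was 601.6 for SOX5 and 614.9 for SOX12.

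In the column for either strand, the 9 further SOX genes examined had lower counts than most of the 10, or none. For SOX10 this does not hold in the strand-specific columns, as given below. SOX9, the invasion-linked SOXE factor, had 177.8, 186.9 and 149.2 and then 248.9, 221.6 and 216.1 normalized counts, without overlap, and its log2 change of 0.42 (SE 0.18) did not pass the test (DESeq2 adjusted p = 0.198). SOX30, a testis gene, had means of 18.7 and 18.5 (DESeq2 adjusted p = 0.997). SOX21, a SOXB2 repressor, had between 2 and 14 reads per library (DESeq2 adjusted p = 0.691). SOX7 and SOX1 had at most 6 and 4 reads. SOX3, SOX14 and SOX17 were listed at 0 in each library. SOX10, the melanocyte lineage factor, was also listed at 0 in the column for either strand. Its gene overlaps POLR2F on the opposite strand over 260 exon bases, 5.39% of its exon length. Why SOX10 had no counted reads was not tested. In the sum of the strand-specific columns it had 28863 to 56464 reads per library and a log2 change of -0.24 (DESeq2 adjusted p = 0.653), where 4.79% of 21265 genes passed. Of these reads 0% were kept in the column for either strand, although the annotated overlap covers 5.39% of the exon length. Reads of SOX10 and POLR2F cannot be told apart in that sum, so its log2 change may not be that of SOX10 alone.

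The same strand-specific sum left the calls of the 10 SOX genes as they were. SOX15 kept 59.7% of its strand-specific reads in the counts used and SOX6 kept 55.2%. SOX15 overlaps MPDU1 on the opposite strand over 35 exon bases (2.39% of its exon length). SOX6 shares 0 exon bases with an annotated gene on the opposite strand. Why reads of SOX15 and SOX6 were left out was not tested. SOX4 kept 92.3%, with a non-coding gene on the opposite strand over 168 of its exon bases. The other members kept between 99.2% and 100%. With these reads back, the log2 changes were -0.15 for SOX6, 0.21 for SOX15 and 0.03 for SOX4. The strand columns split evenly (50.1% to 50.2% in the first) as in libraries without strand, so reads of SOX15 and MPDU1 in the shared bases cannot be told apart.

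Factors that work with SOX proteins were examined as a list of 14 genes, including POU and PAX factors and mediators of Wnt signalling. Of these, 2 rose and 0 fell (14.3%, beside 4.94% of all genes tested in either direction), and the median log2 change was -0.03. CTNNB1, which encodes beta-catenin, went from 20062 ± 808.8 to 25629 ± 1050 normalized counts (log2 change 0.35, SE 0.09, DESeq2 adjusted p = 0.00432). HDAC1, a histone deacetylase, went from 13526 ± 442.9 to 16943 ± 1182 (log2 change 0.32, SE 0.10, DESeq2 adjusted p = 0.0258). Both calls were lost with edgeR and in 5 of the 6 fits that left out a library. Among 20 other genes with an HMG box of the sequence-specific or relaxed kind, such as TCF7, LEF1 and the TOX genes, 0 passed in DESeq2 and 0 in edgeR. Of all genes tested 4.94% passed in DESeq2 and 2.81% in edgeR, so 0 of 20 is near those shares. An unadjusted DESeq2 p under 0.05 was reached by 5 of the 20, and the share of all genes at that threshold was not counted. Without empty vector replicate 3, 4 of the 20 passed, where 17.8% of all genes passed. The median log2 change of the 20 was 0.09.

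Genes known as targets of the SOX subgroups were listed by subgroup. Of the SOXB and SOXC targets, 10 of 12 were tested, 2 rose and 1 fell (beside 2.29% higher and 2.64% lower among all genes), with a median log2 change of 0.30. MAP2, a microtubule protein of neuronal dendrites, had 12.1, 21.3 and 20.4 normalized counts with the empty vector and 65.4, 69.9 and 57.4 with overexpression. Its groups were far apart, with a log2 change of 1.84 (SE 0.36, DESeq2 adjusted p = 3.57e-05), and the call held in each alternative fit. TEAD2, a Hippo pathway factor, went from 1266 ± 114.2 to 1702 ± 174.1 (log2 change 0.43, DESeq2 adjusted p = 0.0269). CCND1, which drives entry into S phase, fell by 0.65 on the log2 scale (SE 0.21, DESeq2 adjusted p = 0.0402). Its groups overlapped, empty vector replicate 3 (16587) lying below overexpression replicates 1 and 2 (16840 and 17420). TEAD2 lost its call in 6 of 15 alternatives and CCND1 in 7.

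Of the SOXD and SOXE targets, 15 of 18 were tested and 1 rose, with a median log2 change of 0.11. That share, 6.67%, is near the 4.94% of all genes tested. The gene was COL2A1, the type II collagen of cartilage, with 98.9 ± 21.0 and 158.7 ± 0.198 normalized counts (log2 change 0.68, SE 0.22, DESeq2 adjusted p = 0.0441), and the call was lost in 11 of 15 alternatives. Of the SOXF targets, 7 of 8 were tested and 1 fell (14.3%, beside 4.94% of all genes), with a median of 0.04. ROBO4, an endothelial guidance receptor, had 930.4, 895.6 and 713.7 normalized counts with the empty vector and 560.5, 583.1 and 539.1 under overexpression. Its groups did not overlap, and the log2 change was -0.59 (SE 0.14, DESeq2 adjusted p = 0.00164), lost when empty vector replicate 1, empty vector replicate 2 or overexpression replicate 1 was left out. Of 5 non-coding RNAs beside SOX genes, 3 were tested and 0 passed in DESeq2 or edgeR, with 0 at an unadjusted DESeq2 p under 0.05. With 3 genes of low count, and 4.94% of all genes passing in DESeq2, 0 calls say little. Among them CASC15, near SOX4, had means of 38.0 and 32.4 normalized counts (log2 change -0.22, DESeq2 adjusted p = 0.889).

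The upstream windows of the SOX genes were searched for short words after the values had been seen. RefSeq windows of 300 bases, from 250 before to 50 after a start, were found for SOX2, SOX4, SOX5, SOX6, SOX12 and SOX13, 10 windows in all. Windows of SOX8, SOX11, SOX15 and SOX18 were not analysed here. The SOX core was searched as ACAAAG and ACAATG on both strands, and at least 1 of these words is in 24.5% of all 35116 windows. The SOX2 window holds 1, at base 31 of the stretch printed above, and the SOX5 window holds 2, at bases 71 and 113, read there as CATTGT. Of the 5 SOX6 windows, 2 hold the word, with 4 and 1 matches. The windows of SOX4, SOX12 and SOX13 hold none, which says only that these letters are not in these windows. The octamer ATGCAAAT, a POU factor word (1.77% of all windows), is in the SOX12 window. TGANTCA, the AP-1 word (7.71% of all windows), is in 1 SOX6 window. CCAAT (34.6% of all windows) is in the SOX2 and SOX12 windows once each, in the SOX4 window 4 times and in 3 SOX6 windows. GGGCGG, the GC box (45% of all windows), is in the windows of SOX2, SOX5 and SOX13 and 1 of SOX6 once each, and in the SOX12 window 4 times. All words were searched on both strands, and none contains another. These matches describe letters and are not binding sites.

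Genes whose profile over the 6 libraries was most like that of the called members were found by Pearson's r of log2(normalized count + 1) over 13332 genes with a mean of 50 or more. Nearest to SOX2 were NRIP1 (r = 0.997), SRSF6 (r = 0.996) and SPTY2D1 (r = 0.994). Nearest to SOX5 were DIRAS1 (r = 0.998), STRIP2 (r = 0.997) and PIP4K2B (r = 0.995), and to SOX8 CDC42EP5 (r = 0.997), ABHD1 (r = 0.994) and LYPLA1P2 (r = 0.988). These values are descriptions over 6 libraries that share the group difference and their depth. Of the 9 genes, NRIP1, SRSF6 and DIRAS1 passed the test themselves, with log2 changes of 0.35, 0.38 and 0.46 (DESeq2 adjusted p = 0.0159, 0.00778 and 0.0289). Among all genes tested 4.94% passed. The 9 genes were picked for their likeness to called genes in these same libraries, so their calls are not separate evidence.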

How the data were processed

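RNA sequencing of 3 HMGB2 overexpression and 3 empty vector A375 libraries was analysed, grouped by the genotype in the labels. The submitters' notes name FastQC, Trimmomatic and STAR, and reads were aligned by the authors to hg38. The STAR version and the annotation release were not given in the sources used here. The deposited values are raw gene counts in STAR's layout, whole numbers without normalization, in which a read is counted when it maps to 1 place and 1 gene. The column for either strand was used. Ambiguous reads made up 10.7% to 11.4% of reads, and 4 summary lines were left out. Symbols came from GENCODE 44, which matched 57532 of 58302 IDs, and unmatched IDs held 0.0575% of counts.

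DESeq2 1.42.0 (R 4.3.3) was run on the counts, with the Wald test on group over all 32925 genes with a count, 18836 of which received an adjusted p, at a Benjamini-Hochberg adjusted p of 0.05. Log2 fold changes were not shrunken. Intervals cover the spread between these technical replicates and counting error only. Members and gene lists were chosen with earlier results of these data known, so they are not independent evidence. The genes named were all members, SOX genes with 10 or more reads in a library, up to 4 called genes with the largest change per list, and the 3 most similar profiles per called member, beside HMGB2 and markers. KRT5 and the CCND1 values of single libraries were picked after they were seen. SRY was not used. Alternatives were edgeR 4.0.16, TMM factors, a filter of 10 counts in 3 libraries, no independent filter, shrinkage, strand-specific sums, a correction for GC content and length, a replicate block, a term for the third replicates, replicates 1 and 2 alone, and leaving out each library. Tested on simulated data of 32925 genes made from this comparison, DESeq2 recovered 58.2% of 1.5-fold, 85.1% of 2-fold and 100% of 4-fold changes, with 12.9% false among its calls. For edgeR these were 49.3%, 83.6%, 100% and 6.06%. The changed genes, 66 or 67 per fold, had a mean of 50 or more normalized counts, which SOX15 did not reach. The simulated libraries held no shift of empty vector replicate 3 or of the third replicates. These rates therefore need not hold for the SOX genes in the real libraries.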

Additional observations from a re-analysis of the deposited data

Results flagged for a closer look

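Multimapped reads, which enter no gene count and no comparison of SOX genes, were more frequent in HMGB2 overexpression replicate 1 (4.89% of reads) and replicate 3 (10.6%) than in any empty vector library, the highest of which had 3.96%. Overexpression replicate 2, at 3.32%, was within the empty vector range. Their part in the SOX values was not tested. Groups of 3 were not searched for single outlying values.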

How the results depend on the processing

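SOX2 kept its direction and its call in all alternatives. With edgeR 215 genes were higher and 255 lower, 2.81% of those tested. In that fit 1 SOX member and 2 list genes passed, and SOX5 (0.48) and SOX8 (-1.32, log2) lost their calls. A term for the third replicates gave 1374 genes higher and 1359 lower, 17.3% of those tested. It gave 5 SOX members and 16 list genes instead of 7, and called SOX13 (-0.42) and SOX18 (-0.51). Replicates 1 and 2 alone gave 1203 higher and 1418 lower of 15028 genes tested. There 17 list genes passed, SOX13 (-0.52) was called and SOX4 turned to -0.057. Same-numbered libraries were not shown to be paired (correlations of deviations 0.0906, 0.142 and 0.349). The replicate number as a block gave 886 genes higher and 940 lower of 14552 tested, with 5 SOX members and 13 list genes. SOX13 was then at -0.42 (DESeq2 adjusted p = 0.00702) and SOX18 at -0.51 (DESeq2 adjusted p = 0.0358). The fit of all libraries gave 432 higher and 498 lower of 18836, so calls rose over all genes in these fits and not in SOX genes alone.

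Leaving out single libraries gave 155 to 1334 genes higher and 208 to 1520 lower. The highest counts came without empty vector replicate 3, where 17.8% of all genes passed. These fits called 2 to 5 SOX members and 1 to 15 list genes. The log2 fold changes then ranged from -0.17 to 0.18 for SOX4, 0.40 to 0.57 for SOX5, -1.56 to -1.02 for SOX8, -0.38 to -0.0023 for SOX6, 0.16 to 0.62 for SOX15, -0.019 to 0.31 for SOX11, -0.29 to 0.0153 for SOX12, -0.66 to -0.30 for SOX13, -0.65 to -0.35 for SOX18 and -0.27 to 0.13 for SOX30. SOX30 was 0.0005 with the GC and length correction. Per-length levels of SOX5, SOX13 and SOX6 depended on the transcript length used, and those of SOX15 and SOX6 on the strand columns. The causes were not tested. Low counts limit SOX8, SOX15 and SOX6.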
